A study of Xenopus tropicalis with 39 samples.

Results

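Otx1-only regions are places where the Otx1 peak list holds a peak and the Vegt and Foxh1 lists hold none that touches it. They were chosen by measured values, namely by which peaks of the 3 factors overlapped by at least 1 bp, and 205 were found among 55220 merged regions. They made up 3.99% (exact 95% interval 3.48 to 4.57%) of the 5132 regions with an Otx1 peak. Of the other Otx1 regions, 966 also held a Vegt peak, 1646 a Foxh1 peak and 2315 both. Because the choice fixes the absence of Vegt and Foxh1 peaks at these places, that absence is not a result. It says that no peak was listed, not that no factor was bound.

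Otx1 is a homeodomain transcription factor of the Otx family, whose RNA the frog egg inherits from the mother. Vegt, a T-box factor stored as RNA at the vegetal pole of the egg, helps to start the endoderm programme, and Foxh1 is a forkhead factor that brings Smad proteins of the Nodal pathway to DNA. H3K4me1 is a methylation mark on histone H3 that is found at enhancers, both active and poised.

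The Otx1 and Vegt lists came from chromatin immunoprecipitation (ChIP) of whole Xenopus tropicalis embryos at stage 8, a blastula stage that the series design places ahead of zygotic gene activation, with 2 samples for each factor. The H3K4me1 list came from vegetal masses dissected from fixed embryos at stage 10.5, also in 2 samples. All were pools of embryos, and the labels name no injection, strain or genotype for them. For Foxh1 the authors called peaks on libraries published with another study, and 1 of those libraries also went into the Otx1 and Vegt lists. The Foxh1 peak names carry the letters st8. Each of the 4 lists was deposited as 1 list over its replicates, so no value below has a spread between replicates and no test was made. Exact binomial (Clopper-Pearson) intervals cover counting over regions only, and regions of 1 pooled experiment are not replicates. A stage 10.5 vegetal mass and a stage 8 whole embryo differ in both tissue and time, which cannot be told apart in any overlap with H3K4me1.

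The lists differed in size and in how low they reached. The Otx1 list held 5151 peaks with -log10 p of 8.14 to 46.0, the Vegt list 21711 peaks with a lowest -log10 p of 14.6, and the Foxh1 list 39218 peaks with a lowest of 27.7. How these limits compare is not known, since -log10 p depends on each experiment's depth, and weaker Vegt and Foxh1 peaks were not analysed here. The numbers in the peak names ran up to 9074 for Otx1, 45441 for Vegt and 131359 for Foxh1. The peaks listed came to 56.8%, 47.8% and 29.9% of these numbers in the same order. A place without a listed Vegt or Foxh1 peak may thus have held one that was left out. The H3K4me1 list held 15925 peaks. Fold enrichment and -log10 p per peak are the authors' own values, and peaks are ranked by them only within a list. The genome build is not given in the sources used here, and coordinates are those of the deposited lists, counted from 1, with no gene named because no annotation of that build was used.

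The Otx1 peaks of Otx1-only regions were mostly weak by p-value, while their fold and width were near the middle of the list. Each of the 205 held exactly 1 Otx1 peak, and 19 of the 4927 other Otx1 regions held 2. So few regions held 2 that these counts cannot show a difference between the members and the others. A Vegt or Foxh1 peak can also join 2 Otx1 peaks that do not touch, which the merging allows in shared regions only. The Otx1 peak was 221 to 861 bp wide in the members with a median of 327 bp, against a median of 324 bp over the whole list. Its fold enrichment spanned 3.23 to 8.84 with a median of 4.63, against 4.68 over the whole Otx1 list. Its -log10 p spanned 8.14 to 29.7, with a median of 10.3 in Otx1-only regions, against 11.03 in those shared with Vegt, 11.01 in those shared with Foxh1 and 13.7 in those of all 3 factors. By the p ranking the median member stood at percentile 31.9 of the Otx1 list, and by the fold ranking at percentile 48.3. Only 63 of 205 members (30.7%, interval 24.5 to 37.5%) lay in the upper 50% of the list by p, while 101 of 205 (49.3%, interval 42.2 to 56.3%) lay there by fold.

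The gap between both rankings was also seen within groups of fold. When all Otx1 regions were divided by fold into 4 groups of equal size, the members had the lower median -log10 p in each. Fold still varied within a group, from 5.48 to 11.9 in the highest, so regions were not matched on fold. In the lowest group the median was 8.87 in 35 Otx1-only regions, against 9.36 in 1248 regions with another factor. In the second group it was 8.74 in 69 Otx1-only regions, against 10.4 in 1214. In the third group it was 11.03 in 66 Otx1-only regions, against 12.8 in 1217. In the highest group it was 16.1 in 35 Otx1-only regions, against 19.7 in 1248. The members' medians were thus lower, but in each group their -log10 p values overlapped those of the other Otx1 regions. The members' -log10 p took 90 distinct values over 205 peaks, and that of the list took 1229 over 5151 peaks. Such counts depend on the number of peaks, so they cannot be set against each other. At 8.74 stood 32 of the 205 members and 200 of the 5151 listed peaks. At 10.3 stood 22 of the 205 members and 159 of the 5151 listed peaks.

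**Figure D1:**
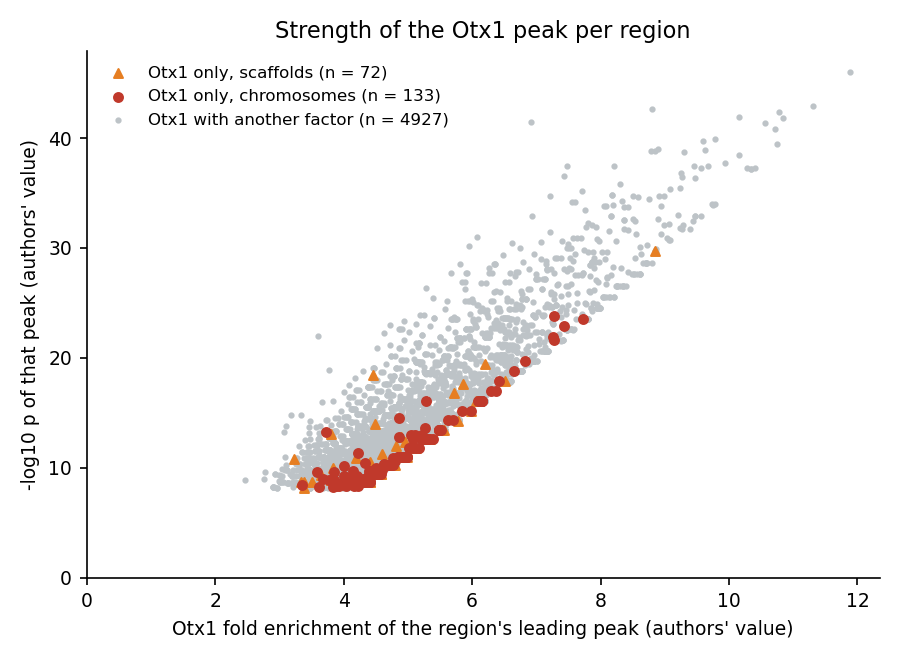
Fold enrichment (horizontal axis) against -log10 p (vertical axis), both the authors' values, for the leading Otx1 peak of each of 5132 regions. Orange triangles are the 72 Otx1-only regions on unplaced scaffolds, red circles the 133 on chromosomes, and grey points the 4927 Otx1 regions with another factor. Above the lowest folds the coloured points lie mostly in the lower part of the cloud. Their medians are 4.63 for fold and 10.3 for -log10 p.

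The share of regions that were Otx1-only was smaller among Otx1 peaks of high -log10 p than among those of low -log10 p. By fold the share did not fall steadily, but it was lower in the lowest and highest groups than between them. The 4 equal fold groups above held 35, 69, 66 and 35 Otx1-only regions, from lowest to highest. In the top 10% of the Otx1 list lay 9 of 205 members by fold (4.39%, interval 2.03 to 8.17%). By -log10 p it was 6 of 205 (2.93%, interval 1.08 to 6.26%). With all Otx1 regions ranked by -log10 p and cut into 10 groups of equal size, the share was 5.46%, 7.41%, 4.87% and 6.24% in the 4 weakest groups. It was 3.70% and 4.48% in the middle 2, and 2.53%, 2.73%, 1.36% and 1.17% in the 4 strongest. The decline by -log10 p was seen on both kinds of sequence. On unplaced scaffolds the share was 39.1% (18 of 46) in group 2 and 2.94% (1 of 34) in group 10. On chromosomes it was 4.28% (20 of 467) in group 2 and 1.04% (5 of 480) in group 10. Regions of equal -log10 p were put into groups in the order of their sequences. At 8.74 the scaffold regions therefore fell in group 2 only, and chromosome regions in groups 1 and 2. The step between these 2 groups thus depends on that order. In group 1 the share was 33.3% (5 of 15) on scaffolds and 4.62% (23 of 498) on chromosomes. Neighbouring groups had overlapping intervals.

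**Figure D2:**
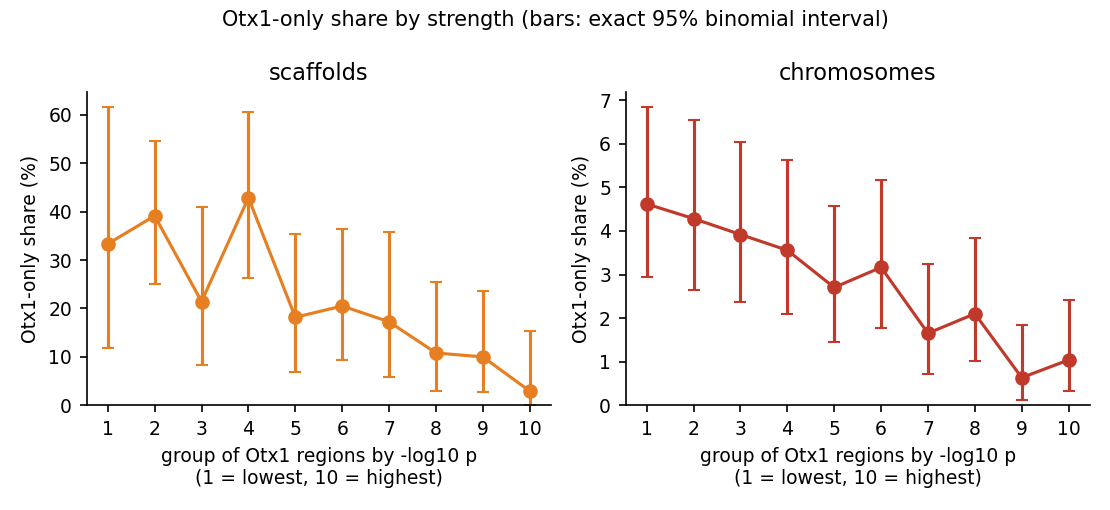
Share of Otx1 regions that were Otx1-only (vertical axis, %, on its own scale in each panel) in 10 equal groups of rising -log10 p (horizontal axis), on unplaced scaffolds (left) and chromosomes (right). Points are shares and bars exact 95% intervals. The share is lowest in the groups of highest -log10 p in both panels, at 2.94% on scaffolds in group 10 and 0.634% on chromosomes in group 9.

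The 5 members of highest fold show the top of this range. The strongest was scaffold_9153:221-755, with a fold of 8.84 and a -log10 p of 29.7, on a scaffold with no Vegt, Foxh1 or other Otx1 region. Chr05:138206429-138206819 had a fold of 7.72 and lay 270139 bp from the nearest Vegt peak and 49535 bp from the nearest Foxh1 peak. The next, Chr05:51876391-51876947, had a fold of 7.43 and lay much nearer to both, at 1305 bp from a Vegt peak and 2338 bp from a Foxh1 peak. Chr01:121993195-121993728, with a fold of 7.28, was 896 bp from a Foxh1 peak, whereas Chr06:124647770-124648286, with a fold of 7.27, was 58091 bp from the nearest Vegt peak and 90231 bp from the nearest Foxh1 peak. Strong Otx1-only peaks were thus found both beside and far from peaks of the other factors. The 3 lowest folds were 3.35 at Chr08:2198875-2199735, which was also the widest member at 861 bp, 3.34 at scaffold_94:113453-113707 and 3.23 at scaffold_149:259012-259339.

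Otx1-only regions lay on unplaced scaffolds more often than other Otx1 regions did in these lists. Unplaced scaffolds, the pieces of an assembly that are not assigned to a chromosome, carried 72 of 205 Otx1-only regions (35.1%, interval 28.6 to 42.1%), against 264 of the 4927 Otx1 regions with another factor (5.36%, interval 4.75 to 6.02%). With only the Vegt and Foxh1 peaks of above-median fold, the share of Otx1-only regions on scaffolds was 21.0%. The scaffold share was 11.3% in regions shared with Vegt, 3.77% in those shared with Foxh1 and 4.02% in those of all 3 factors. Seen the other way, 21.4% (interval 17.2 to 26.2%) of the 336 Otx1 regions on scaffolds were Otx1-only, while 2.77% (interval 2.33 to 3.28%) of the 4796 on chromosomes were. Scaffold and chromosome members were alike in strength, with a median -log10 p of 10.3 in both, a median fold of 4.64 on scaffolds and 4.63 on chromosomes, and a median Otx1 peak width of 323 bp on scaffolds and 333 bp on chromosomes.

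The scaffold members were spread thinly. They lay on 62 scaffolds, of which 53 held 1 member, 8 held 2 and 1 held 3. Of these 62 scaffolds, 25 held a Vegt peak, 19 a Foxh1 peak and 29 neither, so 31 members had no peak of another factor anywhere on their sequence. The choice of members fixes part of this, since a scaffold with no Vegt or Foxh1 peak can only hold Otx1-only regions. The lists do not give scaffold lengths. The farthest peak of any list ended at a median of 34574 bp on scaffolds with a member, against 137627 bp on the 117 scaffolds with other Otx1 regions only. On 21 of the 62, and on 32 of the 117, it ended before 10000 bp. Each of the 117 holds a Vegt or Foxh1 peak by the choice of members, while 29 of the 62 hold neither. The choice thus fixes part of this contrast as well. A short sequence leaves little room for a second peak, and the part of scaffold length in these counts was not tested.

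On every chromosome the members were few, but some lay close together. Another member lay within 10000 bp for 10 of the 133, while the median distance to the next member was 2488500 bp. On Chr09, for example, Chr09:45526494-45526758, Chr09:45558157-45558616, Chr09:45574375-45574706 and Chr09:45583525-45583867 followed each other. The intervals below count such members as independent. Chr01 and Chr05 held 18 members each, Chr03 held 17, Chr06 15, Chr07 and Chr09 14 each, Chr08 13, Chr04 12, and Chr02 and Chr10 6 each. As a share of the Otx1 regions of a chromosome they were 1.00% (6 of 600) on Chr02 and between 2.41% and 3.15% on Chr01 and on Chr03 to Chr08. On Chr09 the share was 6.19% (14 of 226, interval 3.43 to 10.2%) and on Chr10 6.74% (6 of 89, interval 2.51 to 14.1%), where Otx1 regions as a whole were few. The intervals of both overlap those of Chr01 and of Chr03 to Chr08, but not that of Chr02 (0.368 to 2.16%).

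**Figure D3:**
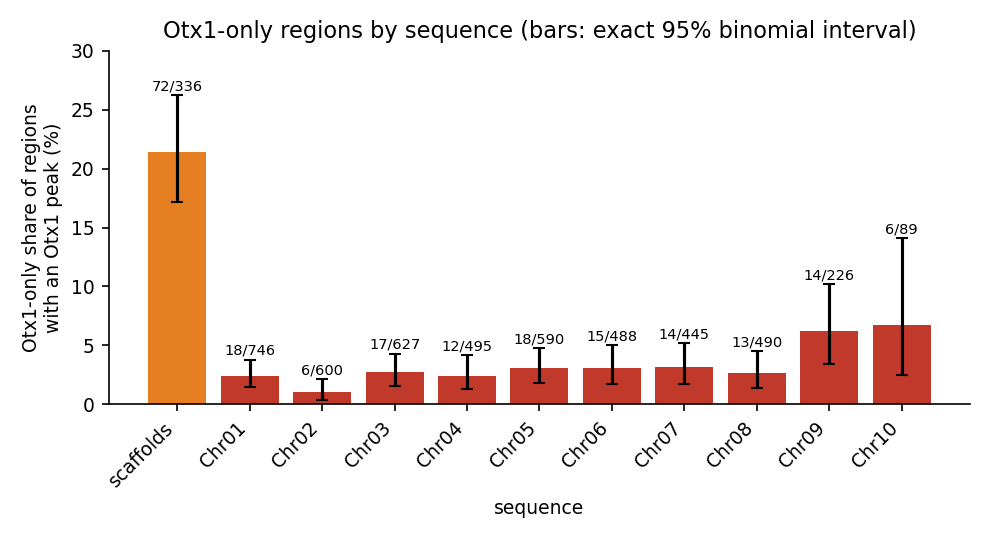
Share of regions with an Otx1 peak that were Otx1-only (vertical axis, %) on unplaced scaffolds and on each chromosome (horizontal axis). Numbers above bars are Otx1-only regions over all Otx1 regions and error bars are exact 95% intervals. The scaffolds stand at 21.4% and the chromosomes between 1.00% on Chr02 and 6.74% on Chr10.

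Distances to peaks of the other factors were measured from edge to edge on the same sequence, and are above 0 by the choice of members. A Vegt peak was on the same sequence for 165 members, at 89 to 562433 bp with a median of 25682 bp. A Foxh1 peak was on the same sequence for 156 members, at 353 to 483169 bp with a median of 15523 bp. The nearer of both was a median of 11451 bp away for the 174 members with either on their sequence. It lay within 10000 bp for 82 of 205 members and within 100000 bp for 164. Few members were thus directly beside a peak of another factor, and on chromosomes this was about as uncommon in the classes compared below. Within 1000 bp of a Vegt or Foxh1 peak lay 25 of 205, within 500 bp 11, within 200 bp 3 and within 100 bp 1.

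On the 133 chromosome members, where every distance exists, the nearest peak of the other 2 factors was a Foxh1 peak for 87 and a Vegt peak for 46. The Foxh1 list was also the longer list, 39218 against 21711 peaks. The median distance to Vegt was 27198 bp (interval 22005 to 40306 bp) for Otx1-only regions, against 17566 bp for the 1584 regions shared by Otx1 and Foxh1. A Vegt peak lay within 10000 bp of 29 Otx1-only regions (21.8%, interval 15.1 to 29.8%), against 35.4% of regions shared by Otx1 and Foxh1 and 32.8% of the 30375 regions with Foxh1 alone. The median distance to Foxh1 was 15290 bp (interval 10912 to 21284 bp) for Otx1-only regions, against 11312 bp for the 857 regions shared by Otx1 and Vegt. It was 12679 bp for the 13946 regions with Vegt alone, and both of these medians lie within that interval. A Foxh1 peak lay within 10000 bp of 39.8% of Otx1-only regions, against 46.6% of regions shared by Otx1 and Vegt and 43.2% of regions with Vegt alone. Within 1000 bp the classes were close. A Vegt peak lay so near to 6.02% of Otx1-only regions, 6.57% of regions shared with Foxh1 and 5.53% of regions with Foxh1 alone. A Foxh1 peak lay so near to 9.02% of Otx1-only regions, 8.98% of regions shared with Vegt and 7.30% of regions with Vegt alone.

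**Figure D4:**
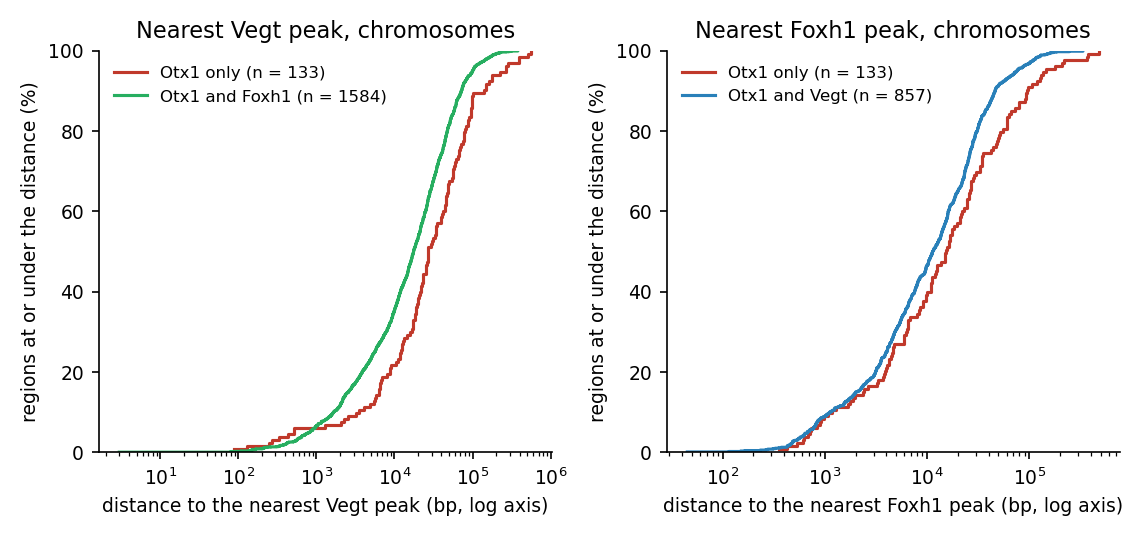
Cumulative share of chromosome regions (vertical axis, %) within a given distance (horizontal axis, bp, log scale) of the nearest Vegt peak (left) and Foxh1 peak (right). The red line is the 133 Otx1-only regions, the green line the 1584 regions shared by Otx1 and Foxh1, and the blue line the 857 shared by Otx1 and Vegt. Lines start together below 1000 bp and the red line lies to the right at larger distances, with medians of 27198 bp for Vegt and 15290 bp for Foxh1.

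Chromosome members had a lower median number of regions around them than the other classes listed here, with the smallest gap to regions with Vegt alone. Within 50000 bp on both sides an Otx1-only region had a median of 3 other merged regions of any kind (interval 3 to 4). The median was 5 for regions shared with Vegt, 6 for those shared with Foxh1 and 7 for those of all 3 factors. Regions with Vegt alone had a median of 4, which lies within the Otx1-only interval, and those with Foxh1 alone a median of 5. No other region lay in that window for 11 of 133 Otx1-only regions (8.27%), against 2.57%, 1.45% and 0.900% in the same order of shared classes, 3.82% for Vegt alone and 3.04% for Foxh1 alone. The next Otx1 region lay at a median of 78283 bp from chromosome members, a distance not computed here for the other classes. Over all 205 members, 45 had another Otx1 region within 10000 bp. That neighbour was itself Otx1-only for 16, shared with Vegt for 12, shared with Foxh1 for 10 and shared with both for 7. Over all Otx1 regions these classes made up 3.99%, 18.8%, 32.1% and 45.1% in the same order. Otx1-only regions that were each other's neighbour were counted from both ends. Of the 45, 17 lay on scaffolds, where 21.4% of Otx1 regions were Otx1-only.

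The nearest and farthest members frame this range. The nearest was Chr06:78929929-78930360, 89 bp from a Vegt peak and 731 bp from a Foxh1 peak, with a fold of 7.26 that puts it at percentile 95.01 of the Otx1 list. Chr07:94217094-94217413, with a fold of 4.43, lay 129 bp from a Vegt peak, and scaffold_94:394131-394452, with a fold of 3.81, lay 195 bp from one. The 3 farthest all lay near the start of Chr08. They were Chr08:1811949-1812275, Chr08:1915866-1916280 and Chr08:1928852-1929152, at 387890, 283885 and 271013 bp from the nearest peak of another factor, which was the same Vegt peak for all 3 and also the one 430 bp from the weak member Chr08:2198875-2199735. Their folds were 5.62, 4.99 and 5.30, all above the list's median, and the last 2 lay 12571 bp from each other. Just outside the choice of members, the shortest overlap was 17 bp with a Foxh1 peak at Chr05:104495035-104495879 (fold 4.26). The next were 155 bp at scaffold_24:1090084-1090731 and 162 bp at Chr01:82139825-82140283, both with Foxh1, while the median overlap of an Otx1 peak with its partner was 320 bp. Only 1 shared region rested on an overlap under 50 bp.

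H3K4me1, which played no part in choosing the members, gave an unequal picture on scaffolds and chromosomes. An H3K4me1 peak overlapped 40 of 205 Otx1-only regions (19.5%, interval 14.3 to 25.6%), against 24.6% of the 4927 Otx1 regions with another factor and 8.52% of all 55220 merged regions. Split by placement, 26 of 72 Otx1-only regions on scaffolds overlapped one (36.1%, interval 25.1 to 48.3%) and 14 of 133 on chromosomes (10.5%, interval 5.88 to 17.0%). In Otx1 regions with another factor the overlap was 24.6% on scaffolds and 24.6% on chromosomes, and over all merged regions it was 8.15% on scaffolds and 8.53% on chromosomes. The chromosome share of Otx1-only regions was thus close to that of all regions, whose value lies within its interval. The pooled 19.5% is therefore a mixture that describes neither kind of sequence.

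Among the shared classes, regions of Otx1 and Vegt had the most similar pattern. They overlapped H3K4me1 in 32.1% on scaffolds (35 of 109) and 6.42% on chromosomes (55 of 857). Regions of Otx1 and Foxh1 overlapped it in 21.0% on scaffolds and 21.1% on chromosomes, and regions of all 3 factors in 18.3% on scaffolds and 34.2% on chromosomes. On chromosomes the interval for Otx1-only regions, 5.88 to 17.0%, lay below those of both classes with a Foxh1 peak, 19.1 to 23.2% for Otx1 with Foxh1 and 32.2 to 36.2% for all 3 factors. The same interval included the 7.71% of regions with Foxh1 alone and the 15.1% of regions with Vegt and Foxh1 but no Otx1 peak. Regions with Vegt alone lay below that interval, at 3.32% (interval 3.03 to 3.63%). Median region width on chromosomes was 333 bp for Otx1 only, 510 bp for Otx1 with Foxh1 and 582 bp for all 3. Below 510 bp the interval was 6.39 to 19.2% for Otx1-only regions (13 of 111). It was 17.0 to 22.7% for Otx1 with Foxh1 and 23.9 to 30.3% for all 3 factors. At or above 510 bp these were 0.115 to 22.8% (1 of 22), 19.6 to 25.5% and 35.4 to 40.4% in the same order. In both, the Otx1-only interval lay below that of all 3 factors but overlapped that of Otx1 with Foxh1. The Otx1-only share also depends on where the Vegt and Foxh1 lists end. With only their peaks of above-median fold, 21.3% of the then larger set of Otx1-only regions on chromosomes overlapped H3K4me1. That set by construction takes in regions with a weaker Vegt or Foxh1 peak. The other classes were not recomputed at this setting, so their separation from it was not examined. Within Otx1-only regions, those at or above the median fold of the Otx1 regions and those below it had overlapping intervals. On scaffolds the overlap was 38.9% (14 of 36) at or above that fold and 33.3% (12 of 36) below it, and on chromosomes it was 7.69% (5 of 65) and 13.2% (9 of 68). By -log10 p the scaffold overlap was 50% (11 of 22) at or above the median and 30% (15 of 50) below it, also with overlapping intervals.

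The scaffold overlaps did not come from a few sequences. The 26 members lay on 24 scaffolds. Of the 31 members on scaffolds with no Vegt or Foxh1 peak, 14 overlapped H3K4me1 (45.2%, interval 27.3 to 64.0%), against 12 of the 41 on scaffolds that held such a peak (29.3%, interval 16.1 to 45.5%). On the 37 member scaffolds with any H3K4me1 peak, 26 of the 46 members overlapped one.

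The H3K4me1 peaks on Otx1-only regions were high in the H3K4me1 list by fold, and on scaffolds their summits mostly coincided with the Otx1 summit. Their median fold was 4.16, at percentile 92.0 of the H3K4me1 list, against 4.25 in regions of Otx1 and Vegt, 3.23 in regions of Otx1 and Foxh1 and 3.28 in regions of all 3 factors. Their median width was 393.5 bp, against 447, 836 and 798 bp in the same order. The distance from the Otx1 summit to the H3K4me1 summit had a median of 13 bp in Otx1-only regions, against 84, 272 and 301.5 bp. It was at most 100 bp in 30 of 40 Otx1-only regions (75%), against 53.3%, 14.7% and 7.73%. Summits thus lay farther apart in both classes with a Foxh1 peak than in Otx1-only regions. Overlap was scored on the whole merged region, so in shared classes an H3K4me1 peak may touch only the Vegt or Foxh1 part. The Otx1 summit lay inside the H3K4me1 peak in 38 of 40 Otx1-only overlaps, against 69 of 90, 211 of 347 and 371 of 776. The merging thus fixes part of this contrast. These pooled values mix placements, since 26 of the 40 Otx1-only overlaps were on scaffolds, against 35 of 90 for Otx1 and Vegt.

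Placement moved with this too. On scaffolds the summit distance had a median of 8 bp and was at most 100 bp in 23 of 26 Otx1-only regions, and the H3K4me1 peaks had a median width of 351 bp, against 402 bp for all H3K4me1 peaks on scaffolds. On chromosomes the median distance was 74 bp, 7 of 14 were within 100 bp, and the median width was 546.5 bp, against 550 bp for all H3K4me1 peaks on chromosomes. Regions of Otx1 and Vegt had the same median summit distance of 8 bp on scaffolds, and a median of 201 bp on chromosomes. On scaffolds 88.5% of Otx1-only overlaps had summits within 100 bp, against 85.7% of those of Otx1 and Vegt. The treatment of reads that map to several places is not given in the labels. Its part, and that of placement, in the coinciding summits and in the share of members on scaffolds was not tested.

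**Figure D5:**
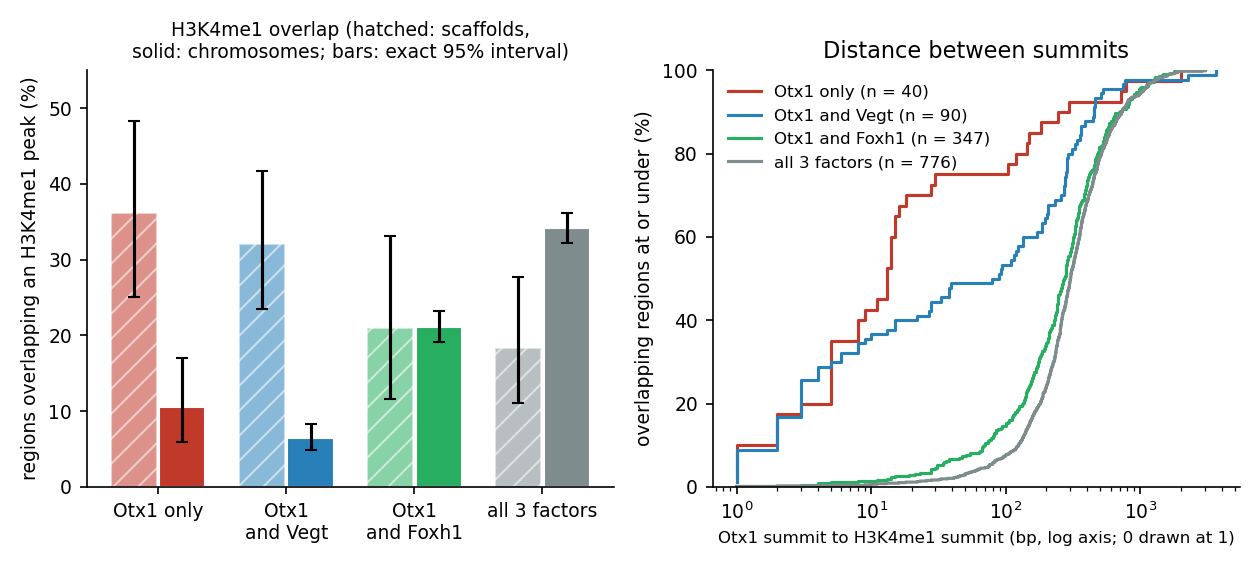
Left, share of regions that overlap an H3K4me1 peak (vertical axis, %) for Otx1-only regions and the 3 shared classes, on scaffolds (hatched) and chromosomes (solid), with exact 95% intervals. Right, cumulative share of overlapping regions (vertical axis, %) by distance between the Otx1 and H3K4me1 summits (horizontal axis, bp, log scale). Otx1-only regions overlap in 36.1% on scaffolds and 10.5% on chromosomes, and their curve in the right panel reaches 75% by 100 bp.

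Single members show what these overlaps look like. The strongest H3K4me1 peak, with a fold of 9.83 and a width of 726 bp, covered the whole of scaffold_9153:221-755, which was also the member of highest Otx1 fold. The second, with a fold of 8.81, covered scaffold_284:38029-38485, 7267 bp from a Foxh1 peak. The third, with a fold of 6.38, covered scaffold_8820:2306-2623, on a scaffold with no Vegt or Foxh1 peak. On chromosomes, 6 of the 14 overlapping members were on Chr04, which held 12 members in all. A pair of these, Chr04:107024785-107025156 and Chr04:107025389-107025908, lay 232 bp from each other under a single H3K4me1 peak of 1142 bp with a fold of 5.29. The Chr04 members are named here after their values were seen. The H3K4me1 peaks carry the letters meso in their names whereas vegetal mass is the tissue on the labels, which were followed.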

How the data were processed

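Only the 4 deposited peak lists were used, of 39 samples in the series. Going by the layout of the lists (10 columns) and the values, each peak has the authors' score, fold enrichment ratio, -log10 p and summit. The score is 10 times the -log10 p, cut to a whole number, and was not used. Reads were aligned with Bowtie2 2.2.7 per the submitters' processing notes. The sources used here give neither the peak caller nor the build, nor how reads that map to several places were treated, which could change values on repeated sequence. Read depth per sample is unknown. The RNA tables were not used because their gene models have no coordinates in them.

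Members and lists were chosen with earlier results of these data known. Peaks of 3 factors were merged by single linkage (at least 1 bp of overlap) with Python 3.11.15, numpy 2.4.6 and pandas 2.3.3. Merging and distances were tested on simulated data and against bedtools 2.31.1. Sequences not named Chr were taken as unplaced scaffolds. A region's strength is that of its Otx1 peak of highest -log10 p. Intervals of shares (95%) came from scipy 1.17.1 and those of medians from binomial order statistics. Named regions were the 5 highest and 3 lowest by fold, the 3 nearest to and 3 farthest from a Vegt or Foxh1 peak, the 3 with the strongest H3K4me1 peak, and the 3 shared regions of shortest overlap. Motifs under the peaks were not analysed here, as no genome was used.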

Additional observations from a re-analysis of the deposited data

How the results depend on the processing

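Of 64 recomputed values, 53 stayed within their interval or within 1.5 times the count and 11 did not. Keeping only the Vegt and Foxh1 peaks of above-median fold gave 566 Otx1-only regions, a median Vegt distance of 41258 bp, a median Otx1 fold of 4.45 and a scaffold share of 21.0%, and H3K4me1 overlap on chromosomes was then 21.3%. Keeping only Otx1 peaks of above-median fold gave 101 regions, a Vegt distance of 34823 bp and, by construction, a fold of 5.21. Without scaffolds there were 133 regions, of which 10.5% overlapped H3K4me1. With peaks cut to 100 bp on both sides of their summits the Foxh1 distance was 10127 bp and the count 256. The cause of these shifts was not tested beyond what each setting removes. The other ways of merging gave 191 to 207 regions, and overlap with H3K4me1 on scaffolds was 33.3 to 38.9% under every setting run for it. The split into chromosomes and scaffolds for H3K4me1 was chosen after seeing the data.

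No paired analysis was possible because each list was deposited over its replicates, and for the same reason leaving out a replicate was not possible. Every count of Otx1-only regions depends on where the Vegt and Foxh1 lists end, and peaks below those thresholds were not analysed here.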
